A study of Mus musculus with 12 samples.

Results

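Genes used as markers of alternative macrophage activation were followed across 2 genotypes, with and without TNF. The set was chosen by name, with earlier results of these data known. It held 9 of the 24465 genes listed in the series. These were the lectins Mrc1, Clec10a and Mgl2, the receptors Il4ra, Cd200r1 and Folr2, the enzyme Tgm2, and the secreted proteins Chil3 and Retnla. All 9 had a row in the untreated table and 8 had one in the TNF table, where Retnla had none. The cells were bone marrow-derived macrophages of mice, grown in culture from marrow progenitors. Total RNA was sequenced after removal of ribosomal RNA, in 12 libraries that form 4 groups of 3. The control cells carried Lyz2cre, in which the Cre recombinase is driven from the gene for lysozyme 2, a gene of myeloid cells. The other cells were Klf6fl/fl:Lyz2cre, so that Cre can remove the floxed Klf6 gene wherever Lyz2 is active, and are called Klf6-deleted below. All 4 groups therefore carried Cre, in a number of copies that the group names do not give. Either genotype was studied without stimulation and after 6 h of TNF, a cytokine of inflammation, at 10 ng/ml, and the labels name no other cytokine given to the cells. The sources used here do not give the strain, sex and age of the mice or the factor used to grow the macrophages. They also leave unsaid whether replicate libraries stem from separate mice or cultures, and p-values therefore describe only how these libraries vary.

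Alternative activation is the state that macrophages enter under interleukin 4 or interleukin 13. Both cytokines bind receptors that contain the IL-4 receptor alpha chain, which activates Janus kinases and the transcription factor STAT6, and STAT6 then acts at genes such as Retnla, Chil3, Mrc1 and Arg1. Several of the set are also expressed by resting or tissue-resident macrophages without these cytokines, among them Mrc1 and Folr2. Klf6, the deleted gene, encodes a zinc-finger factor of the Krüppel-like family, whose members bind CACCC and GC-rich sequences.

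Promoter sequence was found in RefSeq (GRCm38.p6) for 6 of the 9 members: Mrc1, Retnla, Chil3, Mgl2, Il4ra and Folr2. The 250 bases before the annotated start are printed for 4 of them, chosen to show the STAT and CACCC letters that the promoters of the set hold or lack beside the levels given further on. Each is written 5′ to 3′ on the strand of the gene. Capitals mark TTCNNNNGAA, a palindrome bound by STAT6, and TTCNNNGAA, a palindrome with 1 base less bound by STAT factors. They also mark CACCC or its reverse complement GGGTG. Both strands were searched.
Mrc1: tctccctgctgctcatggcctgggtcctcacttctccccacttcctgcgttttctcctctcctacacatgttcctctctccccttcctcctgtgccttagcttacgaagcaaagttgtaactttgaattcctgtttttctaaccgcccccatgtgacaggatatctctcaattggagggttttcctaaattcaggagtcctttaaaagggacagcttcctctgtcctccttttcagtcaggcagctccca
Retnla: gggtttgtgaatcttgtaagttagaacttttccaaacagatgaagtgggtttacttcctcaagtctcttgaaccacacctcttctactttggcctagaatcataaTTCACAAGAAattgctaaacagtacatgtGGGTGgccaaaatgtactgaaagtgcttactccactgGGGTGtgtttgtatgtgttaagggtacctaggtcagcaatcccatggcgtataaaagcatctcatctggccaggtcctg
Chil3: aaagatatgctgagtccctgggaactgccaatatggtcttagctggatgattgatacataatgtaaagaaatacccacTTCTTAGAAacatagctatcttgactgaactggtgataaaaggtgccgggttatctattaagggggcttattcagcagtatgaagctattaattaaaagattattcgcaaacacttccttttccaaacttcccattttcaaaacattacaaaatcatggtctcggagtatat
Il4ra: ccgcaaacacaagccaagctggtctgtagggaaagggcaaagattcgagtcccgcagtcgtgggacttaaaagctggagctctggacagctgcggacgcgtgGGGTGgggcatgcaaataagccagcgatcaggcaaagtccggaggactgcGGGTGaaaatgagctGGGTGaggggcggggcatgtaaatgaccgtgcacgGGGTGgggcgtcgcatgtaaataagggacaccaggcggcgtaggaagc

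The Mrc1 window lies at chr2:14229164-14229413 (+ strand), that of Retnla at chr16:48842359-48842608 (+ strand), that of Chil3 at chr3:106167565-106167814 (- strand) and that of Il4ra at chr7:125552021-125552270 (+ strand). The Retnla window holds 1 TTCNNNNGAA, 145 bases before the start, and 2 CACCC boxes. Among 32851 promoter windows of this length, 5.85% hold a TTCNNNNGAA. Chil3 has 1 TTCNNNGAA, 172 bases before its start, a motif found in 7.02% of windows. Il4ra has 4 CACCC boxes, all read on the strand opposite to the gene, and 1 GC box, GGGCGG. The gene positions given further on are from another annotation, GENCODE. By it Mrc1 starts at 14229392, Retnla at 48842551 and Il4ra at 125552120, so that the end of each of these windows lies within the gene. That part holds all 4 CACCC boxes of Il4ra and none of the letters marked for Retnla. Folr2 has 1 CACCC box in the window of each of its 2 annotated starts. The windows of Mrc1 and Mgl2 hold none of the letters marked in capitals. At least 1 CACCC box is present in 52.0% of all windows, so that its presence is common. A match of letters is a description, and no match says only that these letters are absent from this window.

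Depth ran from 16.9 to 23.4 M gene-assigned reads per library. Klf6 itself, whose floxed part cannot be separated in values per gene, was lower in all Klf6-deleted libraries. Its level was 10118 ± 174 normalized counts in untreated Lyz2cre and 7101 ± 269 in untreated Klf6-deleted cells, and 7447 ± 255 and 4161 ± 43.4 with TNF (mean ± SD, n = 3 libraries). Normalized counts are read counts divided by 1 size factor per library. The macrophage label was checked against 12 macrophage genes, which all had reads in every group and together made up 1.91 to 1.94% of normalized counts in untreated Lyz2cre libraries, 1.19 to 1.28% in untreated Klf6-deleted libraries, and 1.36 to 1.40% and 1.21 to 1.22% with TNF. Of these 12 genes, 11 were lower and 1 was higher in Klf6-deleted cells without TNF, and 8 were lower and 4 higher with TNF (limma, Benjamini-Hochberg adjusted p below 0.05). Lyz2, the gene from which Cre is driven, is 1 of these macrophage genes and was lower in Klf6-deleted cells. It had 856 ± 26.5 and 244 ± 39.35 normalized counts untreated and 1656 ± 45.8 and 931 ± 108 with TNF, Lyz2cre first. Whether Cre differed as well was not tested. Markers of stromal cells were higher in Klf6-deleted cells. Their 12 genes summed to 0.0123 to 0.0151% in untreated Lyz2cre and 0.272 to 0.291% in untreated Klf6-deleted libraries, and to 0.00337 to 0.00475% and 0.0183 to 0.0217% with TNF, and of those tested 10 of 10 were higher without TNF and 7 of 9 with TNF. Monocyte markers, with Chil3 left out of that list, summed to 0.0167 to 0.0181% and 0.0887 to 0.0950% untreated and to 0.0144 to 0.0166% and 0.0282 to 0.0322% with TNF, and 6 of 7 were higher and 0 lower without TNF, while 2 were higher and 3 lower with TNF. Fn1, the fibronectin gene, is in that monocyte list and made up a large part of the sums in Klf6-deleted libraries. It had 1320 ± 74.3 and 10730 ± 664 normalized counts untreated and 869 ± 22.8 and 2894 ± 300 with TNF, Lyz2cre first. Endothelial markers summed to 0.00399 to 0.00448% and 0.00927 to 0.0104% untreated, with 5 of 5 tested higher (median log2 difference 1.30), and to 0.0101 to 0.0120% and 0.00715 to 0.00766% with TNF, with 1 of 3 higher and 2 lower. Neutrophil markers summed to 0.0509 to 0.0566% and 0.0419 to 0.0446% untreated (5 of 7 lower, 2 higher). With TNF they summed to only 0.00123 to 0.00136% and 0.000922 to 0.00116% (2 of 4 lower, 0 higher). Osteoclast markers summed to 0.0361 to 0.0392% and 0.0286 to 0.0315% untreated (3 of 5 lower, 1 higher). With TNF their sums were 0.0405 to 0.0420% and 0.0310 to 0.0316% (2 of 5 lower, 2 higher). The sums of dendritic cell, eosinophil, lymphocyte, and mast cell and basophil markers were at most 0.00533% in any library, and Ear6, an eosinophil marker, was at 0 in every group. The part of these cells in the results that follow was not tested. In bulk RNA, fewer cells of a type and less RNA per cell cannot be told apart.

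Without TNF, deletion of Klf6 went with lower Mrc1, Clec10a, Cd200r1 and Il4ra and with higher Tgm2, Folr2 and Chil3, so that the set did not move as 1 block. Of the 9 members, 8 had enough reads for a test, 4 fell and 3 rose, and Mgl2 did not pass. Over all 12715 genes tested in this comparison 56.9% were called, 27.6% higher and 29.3% lower. The median log2 difference of the 8 tested members was -0.10, beside -0.01 over all genes tested. At least 2-fold changes were seen for 3 of the 8, Mrc1, Clec10a and Tgm2, against 13.8% of all genes tested. Genotypes did not overlap for 6 of the 8, against 62.3% of all genes tested. Every test between genotypes below is limma on log2(normalized count + 1) with Benjamini-Hochberg adjustment over all genes tested, and folds are on that scale, which understates the change of genes with few reads.

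With TNF, 7 members could be tested, of which Mrc1, Clec10a, Cd200r1 and Tgm2 were higher and Il4ra and Folr2 lower in Klf6-deleted cells, while Chil3 did not pass. Over all 11717 genes tested with TNF 57.3% were called, 26.5% higher and 30.8% lower. The median log2 difference of the 7 was 0.32, beside -0.01 over all genes. Only Clec10a among them differed at least 2-fold, against 15.1% of all genes tested, and the genotypes did not overlap for 6 of the 7, against 63.2%. In the set 4 members, Mrc1, Clec10a, Cd200r1 and Folr2, were called in opposite directions without and with TNF, which was so for 13.4% of the 11425 genes tested in both comparisons, and Il4ra and Tgm2 were called in the same direction. The difference between the 2 genotype differences was called for 5 of the 7, against 52.2% of all genes.

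**Figure D1:**
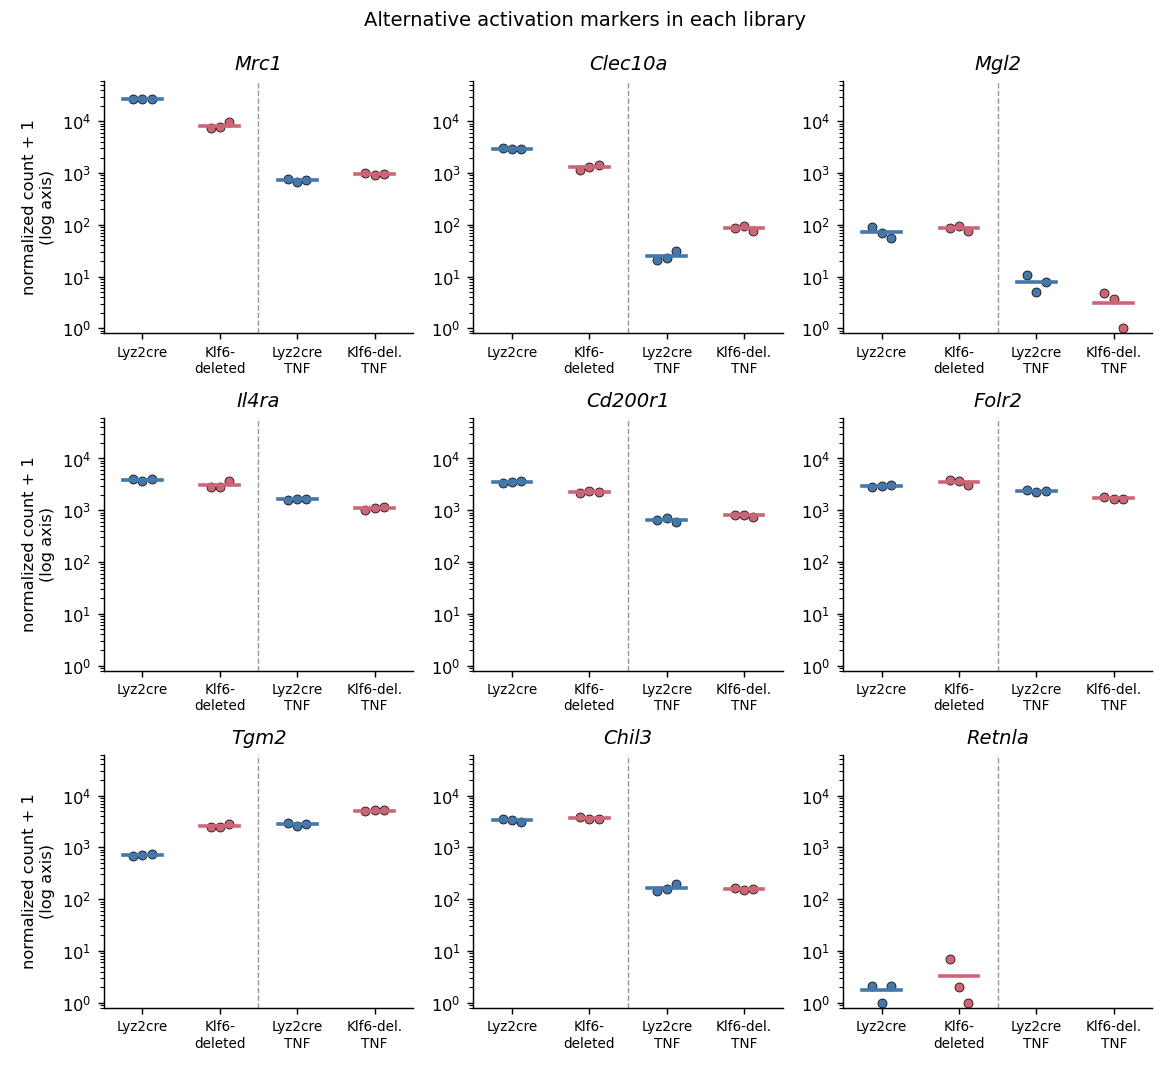
Normalized count plus 1 of each member in each of the 12 libraries on a log axis (Retnla in the 6 untreated ones), 1 panel per gene, with points for libraries and bars for group means. Mrc1 and Clec10a are lower in Klf6-deleted than in Lyz2cre cells without TNF and higher with TNF, while Tgm2 is higher in Klf6-deleted cells in both conditions.

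Mrc1 encodes the mannose receptor CD206, an endocytic lectin for glycoproteins that end in mannose, and lies on chromosome 2 at 14229392 to 14332057, + strand (GRCm38, as for all gene positions here). Its untreated Lyz2cre libraries held 27098, 27235 and 27589 normalized counts (27307 ± 253, SD, n = 3), and the untreated Klf6-deleted libraries 7376, 7815 and 9533 (8241 ± 1140, n = 3). The groups were far apart, with the highest Klf6-deleted library well below the lowest Lyz2cre one. The log2 difference was -1.74 (SE 0.0622), a level 3.33-fold lower in Klf6-deleted cells, with a limma adjusted p of 6.2e-14. With TNF the Lyz2cre libraries held 777, 661 and 725 (720.8 ± 58.1, n = 3) and the Klf6-deleted libraries 1004, 907 and 954 (954.8 ± 48.6, n = 3). All Klf6-deleted libraries were then above all Lyz2cre libraries, by a log2 difference of 0.41 (SE 0.0720, limma adjusted p = 0.00015), or 1.33-fold. The genotype difference with TNF exceeded that without TNF by 2.14 on the log2 scale (SE 0.102, limma adjusted p = 7.4e-13).

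Clec10a encodes the macrophage galactose-type lectin MGL1 (CD301a) and lies on chromosome 11 at 70156197 to 70170834, + strand. Untreated Lyz2cre libraries held 3080, 2879 and 2922 normalized counts (2960 ± 106, n = 3) and untreated Klf6-deleted libraries 1167, 1310 and 1402 (1293 ± 118.5, n = 3). The groups did not overlap, and Klf6-deleted cells were 2.29-fold lower (log2 difference -1.20, SE 0.0566, limma adjusted p = 2.8e-12). Few reads were left with TNF: 19.9, 21.6 and 29.8 normalized counts in Lyz2cre libraries (23.8 ± 5.30, n = 3), from 20, 21 and 26 reads, and 85.9, 93.6 and 73.9 in Klf6-deleted libraries (84.5 ± 9.94, n = 3), from 92, 103 and 76 reads. The order of the genotypes was thus the opposite one, again with no overlap, and Klf6-deleted cells were 3.48-fold higher (log2 difference 1.80, SE 0.237, limma adjusted p = 7.1e-06). The difference of the genotype differences, 3.00 (SE 0.178, limma adjusted p = 2.5e-11), was larger than for any other member tested.

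Mgl2 encodes the second mouse galactose-type lectin (CD301b) and ends 18646 bases before Clec10a on the same strand, at 70130329 to 70137550 of chromosome 11. Its level was low. Untreated Lyz2cre libraries held 88.6, 67.8 and 54.7 normalized counts (70.4 ± 17.1, n = 3) and Klf6-deleted libraries 87.5, 94.7 and 74.7 (85.6 ± 10.1, n = 3). The groups overlapped and the test did not pass, with a log2 difference of 0.30 whose 95% interval ran from -0.11 to 0.71 (limma adjusted p = 0.21). With TNF only 10, 4 and 6 reads were counted in Lyz2cre and 4, 3 and 0 in Klf6-deleted libraries, below the limit for a test. The 2 lectin genes share sequence: 8.49% of the 50-base windows in Clec10a transcripts and 12.2% of those in Mgl2 transcripts are found in the other gene. The counting could have assigned such reads to either gene, so that the small Mgl2 values are uncertain beside the larger ones of Clec10a.

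Il4ra encodes the receptor chain shared by IL-4 and IL-13 and lies on chromosome 7 at 125552120 to 125579474, + strand. Untreated Lyz2cre libraries held 3984, 3722 and 3939 normalized counts (3881 ± 140, n = 3) and untreated Klf6-deleted libraries 2824, 2790 and 3713 (3109 ± 523, n = 3). One Klf6-deleted library, replicate 3, stood just below the lowest Lyz2cre library and the other two lay well under it. The log2 difference was -0.33 (SE 0.0752), a 1.26-fold lower level with a limma adjusted p of 0.00098. By DESeq2 this difference did not pass (log2 difference -0.31, adjusted p = 0.055). With TNF the libraries held 1561, 1677 and 1627 (1621.5 ± 58.4, n = 3) in Lyz2cre and 1015, 1124 and 1177 (1105.5 ± 82.5, n = 3) in Klf6-deleted cells. The groups were clearly separate there, with Klf6-deleted cells 1.47-fold lower (log2 difference -0.55, SE 0.0623, limma adjusted p = 1.2e-06). The genotype differences with and without TNF were not called different, with a log2 value of -0.22, a 95% interval from -0.46 to 0.02 and a limma adjusted p of 0.11. That call was gained without Klf6-deleted untreated replicate 1 (-0.28, limma adjusted p = 0.048) and without replicate 2 of that group (-0.29, limma adjusted p = 0.040).

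Cd200r1 encodes the receptor through which the membrane protein CD200 restrains myeloid cells, and lies on chromosome 16 at 44765736 to 44794978, + strand. In untreated cells its values were 3389, 3493 and 3628 normalized counts in Lyz2cre (3503 ± 120.0, n = 3) and 2119, 2341 and 2294 in Klf6-deleted libraries (2251 ± 117, n = 3). No Klf6-deleted library reached the Lyz2cre range, and the level was 1.56-fold lower (log2 difference -0.64, SE 0.0448, limma adjusted p = 7.1e-10). With TNF the values were 644.5, 698 and 588 in Lyz2cre (643.6 ± 54.9, n = 3) and 823, 821.5 and 755 in Klf6-deleted libraries (799.9 ± 38.6, n = 3). The order turned as it did for Mrc1 and Clec10a, without overlap, to 1.24-fold higher in Klf6-deleted cells (log2 difference 0.32, SE 0.0754, limma adjusted p = 0.0020). The genotype differences differed by 0.95 on the log2 scale (SE 0.0865, limma adjusted p = 1.5e-08). Cd200r4, a paralog that shares 1.16% of the 50-base windows of Cd200r1, had 1219 ± 60.9 and 1262.5 ± 49.8 without TNF (log2 difference 0.05, limma adjusted p = 0.43) and 1287 ± 38.0 and 863 ± 40.3 with TNF (log2 difference -0.58, limma adjusted p = 4.4e-07), Lyz2cre first.

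Folr2 encodes folate receptor beta, a cell-surface folate-binding protein that marks many tissue-resident macrophages, and lies on chromosome 7 at 101839988 to 101857194, - strand. Untreated Lyz2cre libraries held 2804, 2967 and 3094 normalized counts (2955 ± 145, n = 3) and untreated Klf6-deleted libraries 3831, 3703 and 3042 (3526 ± 423.5, n = 3). The third Klf6-deleted library fell inside the Lyz2cre range, so that the groups overlapped, while the fitted difference was called (1.19-fold higher, log2 0.25, SE 0.0646, limma adjusted p = 0.0030). With TNF, 2437, 2243 and 2307 were measured in Lyz2cre (2329 ± 98.7, n = 3) and 1800, 1624 and 1665 in Klf6-deleted libraries (1696 ± 92.0, n = 3). Here the Klf6-deleted libraries were all lower, by 1.37-fold (log2 difference -0.46, SE 0.0546, limma adjusted p = 2.3e-06). The difference of the genotype differences was -0.71 (SE 0.0960, limma adjusted p = 3.9e-06), so that the turn of Folr2 had the sign opposite to that of Mrc1, Clec10a and Cd200r1.

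Tgm2 encodes transglutaminase 2, which cross-links proteins between glutamine and lysine side chains, and lies on chromosome 2 at 158116402 to 158146436, - strand. Its libraries held 694, 717 and 735 normalized counts in untreated Lyz2cre (715 ± 20.7, n = 3) and 2498, 2477 and 2862 in untreated Klf6-deleted cells (2612.5 ± 216, n = 3). The genotypes were far apart, with Klf6-deleted cells 3.64-fold higher (log2 difference 1.86, SE 0.0563, limma adjusted p = 5.7e-15). With TNF they held 2977, 2597 and 2811 in Lyz2cre (2795 ± 190, n = 3) and 4968, 5183 and 5192 in Klf6-deleted cells (5114 ± 127, n = 3). Klf6-deleted libraries were again all higher, now 1.83-fold (log2 difference 0.87, SE 0.0513, limma adjusted p = 3.7e-10). The genotype difference was smaller with TNF by 0.99 on the log2 scale (value -0.99, SE 0.0802, limma adjusted p = 2.7e-09).

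Chil3 encodes the secreted chitinase-like protein Ym1 and lies on chromosome 3 at 106147554 to 106167564, - strand. Untreated Lyz2cre libraries held 3545, 3427 and 3059 normalized counts (3344 ± 253, n = 3) and Klf6-deleted libraries 3784, 3556 and 3592 (3644 ± 122, n = 3). The groups only just failed to overlap, and the difference of 1.09-fold was the smallest called in the set (log2 0.13, SE 0.0489, limma adjusted p = 0.036). The call was lost without Lyz2cre untreated replicate 3 (log2 0.06, limma adjusted p = 0.27) and without Klf6-deleted untreated replicate 1 (log2 0.10, limma adjusted p = 0.12). With TNF the values were 141, 156.5 and 194 in Lyz2cre (163.8 ± 27.0, n = 3) and 162, 146 and 154 in Klf6-deleted libraries (153.8 ± 7.64, n = 3). These overlapped, with a log2 difference of -0.08, a 95% interval from -0.37 to 0.22 and a limma adjusted p of 0.65. The genotype differences were not called different either (log2 -0.21, limma adjusted p = 0.18), except without Lyz2cre TNF replicate 1 (-0.31, limma adjusted p = 0.032). Of the 50-base windows in Chil3 transcripts 26.9% are found in other genes and 16.9% in its paralog Chil4, so that reads of that gene could be counted under Chil3. Chil4 itself had no value tested in either comparison.

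Retnla encodes the secreted protein RELMα and is among the genes raised most by IL-4 in mouse macrophages. It lies on chromosome 16 at 48842551 to 48844461, + strand. Only 1, 0 and 1 reads were counted in the untreated Lyz2cre libraries and 7, 1 and 0 in the Klf6-deleted libraries. The gene was thus barely detected, no test or fold is given, and the promoter printed above, with its TTCNNNNGAA, belongs to the least expressed member of the set. Exons of Folr2, Il4ra and Tgm2 overlap genes on the opposite strand, by 975 bases of Gm10602 for Folr2, 571 of Gm44876 for Il4ra, and 633 of Gm20412 and 370 of Rprd1b for Tgm2. The sources used here do not say whether the counting used strand, and without it reads of such partners cannot be told apart.

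**Figure D2:**
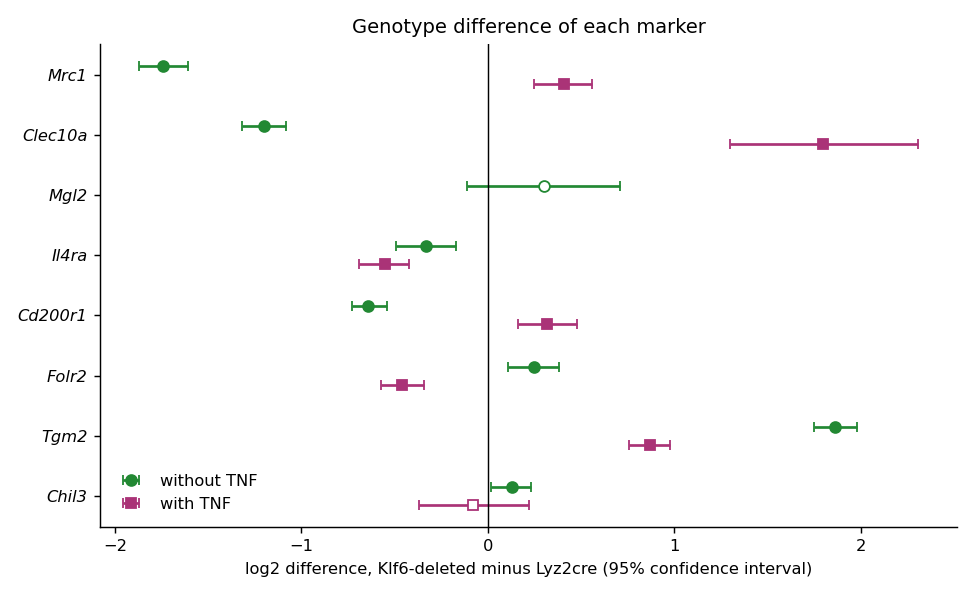
Log2 difference between Klf6-deleted and Lyz2cre cells for each member tested, without and with TNF, from limma, with lines for 95% intervals and open symbols where the difference was not called. Mrc1, Clec10a and Cd200r1 lie below 0 without TNF and above 0 with TNF, Folr2 the reverse, Tgm2 above 0 in both and Il4ra below 0 in both.

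Levels with and without TNF come from tables that were normalized separately, so they were compared as CPM, each library's reads scaled to the same total, with no test. In Lyz2cre cells Clec10a was 124-fold lower with TNF (142.5 ± 5.85 CPM untreated, 1.15 ± 0.245 with TNF, n = 3 each), Mrc1 37.6-fold lower (1314 ± 15.2 and 34.9 ± 2.41) and Chil3 20.3-fold lower (160.9 ± 12.2 and 7.93 ± 1.25). These were the members with the lowest share of their untreated level left after TNF. In Klf6-deleted cells the same ratio was 13.3-fold for Clec10a (68.2 ± 6.33 and 5.14 ± 0.606 CPM), 7.49-fold for Mrc1 (434.8 ± 59.7 and 58.1 ± 2.97) and 20.6-fold for Chil3 (192 ± 5.85 and 9.35 ± 0.468). By CPM, Chil3 thus had nearly the same ratio in both genotypes. Clec10a and Mrc1 kept a larger share of their untreated level in Klf6-deleted cells. Cd200r1 was 5.40-fold lower with TNF in Lyz2cre and 2.44-fold lower in Klf6-deleted cells. Il4ra was 2.38-fold and 2.44-fold lower. Folr2 was 1.26-fold lower in Lyz2cre cells (142 ± 6.85 and 112.8 ± 3.96 CPM) and 1.80-fold lower in Klf6-deleted cells (186 ± 22.5 and 103 ± 5.64). The ratios of Mgl2, 10.0-fold and 34.5-fold lower, rest on the few reads given above. Tgm2 was the only member that was higher with TNF, 3.93-fold in Lyz2cre (34.4 ± 0.969 and 135 ± 7.65 CPM) and 2.26-fold in Klf6-deleted cells (138 ± 11.2 and 311 ± 7.57). Its untreated level in Klf6-deleted cells and its TNF level in Lyz2cre cells overlapped between libraries. Ratios were also scaled by size factors computed over all 12 libraries, an alternative chosen after seeing the data. The Lyz2cre ratios were then 101-fold for Clec10a, 30.7-fold for Mrc1 and 4.83-fold for Tgm2, and that of Folr2 was 1.03-fold lower. In Klf6-deleted cells Clec10a was 12.7-fold and Mrc1 7.15-fold lower on this scale. Chil3 was 16.5-fold lower in Lyz2cre and 19.6-fold lower in Klf6-deleted cells, and Il4ra 1.94-fold and 2.33-fold. The likeness of the genotypes for Chil3 and Il4ra thus depends on the scaling.

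**Figure D3:**
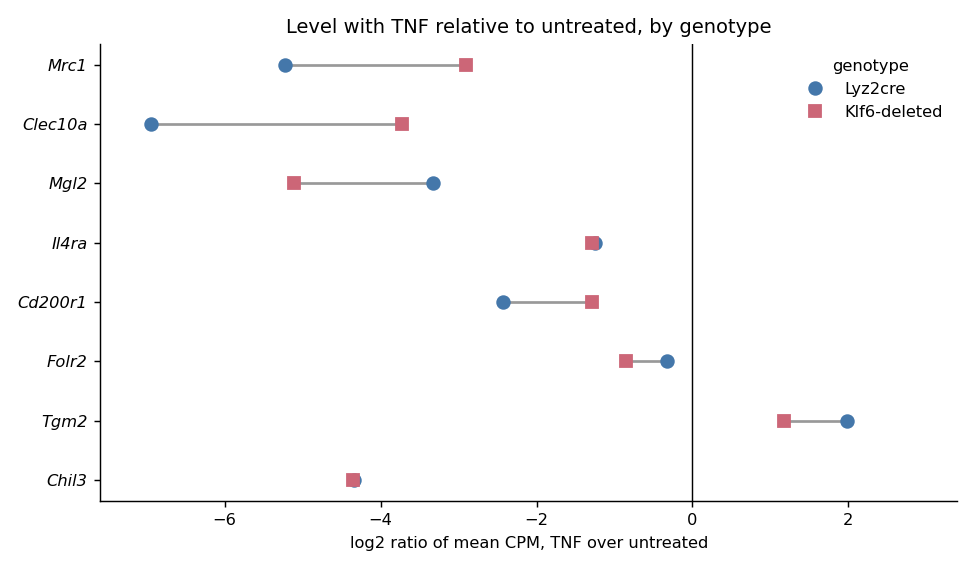
Log2 ratio of the mean CPM with TNF to the mean CPM without TNF for each member, in Lyz2cre and in Klf6-deleted cells, from 3 libraries per group and with no test. Clec10a and Mrc1 lie farther below 0 in Lyz2cre than in Klf6-deleted cells, Chil3 is at nearly the same place in both, and Tgm2 is above 0.

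The order of the groups by CPM differed between members. Mrc1, Clec10a and Cd200r1 were highest in untreated Lyz2cre cells, then in untreated Klf6-deleted, TNF-treated Klf6-deleted and TNF-treated Lyz2cre cells, with no overlap between neighbours. Il4ra was highest in both untreated groups, which overlapped by CPM, and lowest in TNF-treated Klf6-deleted cells. Folr2 was highest in untreated Klf6-deleted and lowest in TNF-treated Klf6-deleted cells. Its neighbours did not overlap on this scale.

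Compared per length, as RPKM, which divides CPM by the kilobases of exon, the leading marker changed with the group. Mrc1 led in untreated Lyz2cre cells at 206 ± 2.39 RPKM, ahead of Chil3 at 98.6 ± 7.46 and Folr2 at 92.0 ± 4.43, and Chil3 and Folr2 overlapped. In untreated Klf6-deleted cells Folr2 (120 ± 14.6) and Chil3 (118 ± 3.58) led without being separate, and Mrc1 followed at 68.3 ± 9.38. Folr2 led in TNF-treated Lyz2cre cells at 73.0 ± 2.56, followed by Tgm2 at 29.4 ± 1.66, with Mrc1 down to 5.48 ± 0.379. Tgm2 (67.5 ± 1.64) and Folr2 (66.7 ± 3.65) shared the lead in TNF-treated Klf6-deleted cells, where their ranges overlapped. Tgm2, the seventh of the 9 in untreated Lyz2cre cells at 7.47 ± 0.210 RPKM, thus stood first or second with TNF. Mgl2 and Retnla were at the bottom where measured, with 1.62 ± 0.398 and 0.0588 ± 0.0509 RPKM in untreated Lyz2cre cells.

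**Figure D4:**
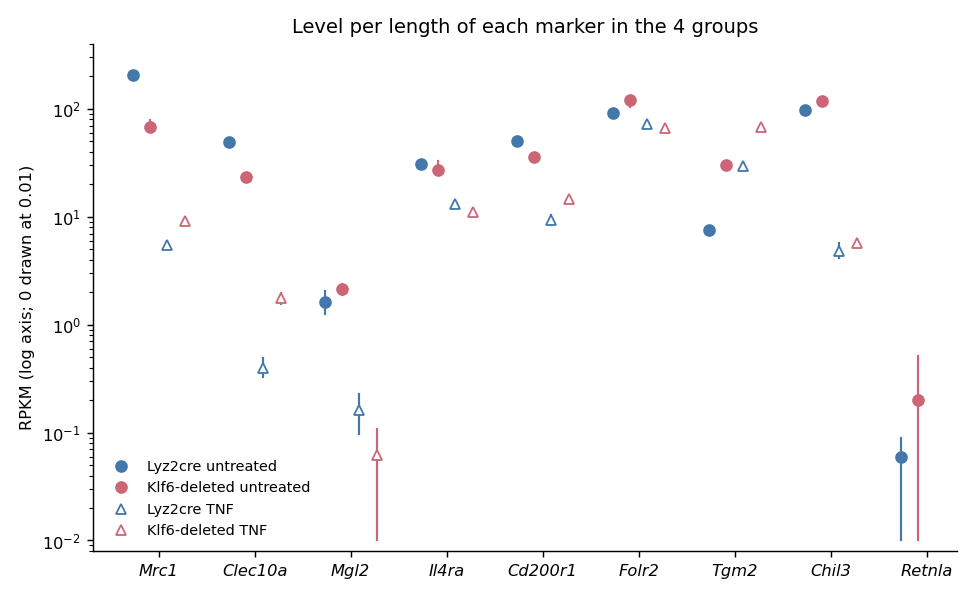
Mean RPKM of each member in each group on a log axis, with lines from the lowest to the highest of 3 libraries, a value of 0 being drawn at 0.01. Mrc1 leads in untreated Lyz2cre cells at 206 RPKM, and Tgm2 and Folr2 lie close together at the top in TNF-treated Klf6-deleted cells.

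A list of 14 IL-4 and IL-13 signalling genes was followed beside the set. Without TNF 13 were tested, of which 7 were lower and 4 higher in Klf6-deleted cells (median log2 difference -0.15, beside -0.01 over all genes), and with TNF 7 of 11 were lower and 2 higher (median -0.53, beside -0.01). Scaled to total reads the counts were 4 lower and 4 higher without TNF and 6 lower and 5 higher with TNF, so that the balance depends on the scaling. Il4, the gene of the ligand, had 177, 169.5 and 184 normalized counts in untreated Lyz2cre libraries (177 ± 7.14, n = 3) and 80.0, 75.8 and 85.3 in Klf6-deleted libraries (80.3 ± 4.75, n = 3). The groups were apart by 2.19-fold (log2 difference -1.13, SE 0.135, limma adjusted p = 9.8e-07), and with TNF only 12, 6 and 10 reads were counted in Lyz2cre and 13, 29 and 23 in Klf6-deleted libraries, below the limit for a test. The Il4 gene has 7 exon blocks in GENCODE, and values per gene do not show where in it the reads lie. Il13 had 1, 0 and 1 reads in untreated Lyz2cre and none in untreated Klf6-deleted libraries. Il13ra1, the partner chain of Il4ra in the receptor for IL-13, was higher in Klf6-deleted cells without TNF (265 ± 14.7 and 362 ± 42.7, Lyz2cre first, log2 0.44, limma adjusted p = 0.00083) and lower with TNF (791 ± 30.0 and 395.5 ± 40.5, log2 -1.0, limma adjusted p = 3.0e-08). Stat6, picked after its values were seen because it carries the IL-4 signal, was not called without or with TNF, with log2 differences of -0.08 (limma adjusted p = 0.059) and 0.08 (limma adjusted p = 0.12) and levels of 6461 ± 129.5 and 6117 ± 107 untreated. The difference between the 2 was called (log2 0.16, limma adjusted p = 0.012).

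Socs1, an inhibitor of Janus kinases, had 34.7 ± 4.59 and 107 ± 13.8 normalized counts without TNF (log2 1.60, limma adjusted p = 1.6e-06) and 489 ± 78.1 and 87.8 ± 14.0 with TNF (log2 -2.46, limma adjusted p = 4.0e-10), Lyz2cre first. Socs2, of the same family, went the same way at lower counts (log2 1.55 without and -1.40 with TNF). Ptpn6, a phosphatase that acts on Janus kinase signalling, picked after its values were seen, was lower in both (log2 -0.43 and -0.22). Irs2, an adaptor recruited to the IL-4 receptor, had 725 ± 29.9 and 592 ± 20.2 without TNF (log2 -0.29, limma adjusted p = 0.00057) and 60.1 ± 17.3 and 306 ± 11.4 with TNF (log2 2.37, limma adjusted p = 1.3e-08). Irs2 thus had the pattern of Mrc1, lower without and higher with TNF in Klf6-deleted cells, and the SOCS genes the pattern of Folr2.

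Of 15 transcription factors named in alternative activation, 7 were lower and 6 higher without TNF (median -0.11), and of 14 tested with TNF 4 were lower and 7 higher (median 0.35). Irf4, a factor downstream of STAT6, had 406 ± 21.3 normalized counts in untreated Lyz2cre and 109 ± 29.2 in untreated Klf6-deleted cells (log2 -1.92, limma adjusted p = 2.2e-09) and had no value tested with TNF. Klf4, a relative of Klf6, was higher without TNF (331 ± 16.8 and 600.3 ± 16.4, log2 0.86, limma adjusted p = 1.0e-08) and not called with TNF (log2 0.15, limma adjusted p = 0.098). Maf was lower in both comparisons (log2 -0.96 and -1.39). Ppard and Rxra, nuclear receptors, were lower without TNF (log2 -0.59 and -0.72) and higher with TNF (log2 1.10 and 0.85), with limma adjusted p-values for the difference between these of 1.7e-09 and 2.0e-11.

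A further list of 30 genes linked to alternative activation split evenly without TNF, with 9 of 20 tested higher and 8 lower (median 0.19), and with TNF 6 of 21 were higher and 10 lower (median -0.04). With scaling to total reads the TNF counts were 11 higher and 9 lower. Arg1, the arginase that marks the same state, was higher in Klf6-deleted cells, at 28.6 ± 3.89 and 2791 ± 527 normalized counts without TNF (log2 6.55, limma adjusted p = 1.2e-17) and 113 ± 12.8 and 1144 ± 21.7 with TNF (log2 3.33, limma adjusted p = 4.7e-14). Arg1 and Mrc1 were therefore called in opposite directions in untreated cells. Fn1, fibronectin, was higher without TNF (log2 3.02, limma adjusted p = 1.3e-18) and with TNF (log2 1.73, limma adjusted p = 1.4e-12). It is also in the monocyte list given above, and the summed stromal markers were higher in the same libraries. Cd163, the haemoglobin scavenger receptor, was lower without TNF (1442 ± 61.1 and 324 ± 31.6, log2 -2.16, limma adjusted p = 1.9e-14) and was not called with TNF (31.5 ± 6.01 and 37.3 ± 17.1, log2 0.16, limma adjusted p = 0.69). Ccl24, a chemokine raised by IL-4, was lower with TNF (56.2 ± 19.5 and 5.97 ± 3.31, log2 -3.10, limma adjusted p = 9.8e-06).

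Resident macrophage genes other than the members formed a list of 10. Without TNF 4 of 7 tested were lower and 1 higher (median -1.45), and with TNF 2 were lower and 2 higher of 7 (median 0.10). The genotype difference was higher with TNF than without for 6 of 6 genes tested in both, against 26.5% of all genes (median 1.37, beside 0.02 over all genes), as it was for Mrc1, and unlike that of Folr2. Gas6, a ligand of the receptors that take up dying cells, had 26493 ± 199.5 and 6557 ± 628 without TNF (log2 -2.02, limma adjusted p = 2.7e-16) and 895 ± 32.2 and 559 ± 28.0 with TNF (log2 -0.68, limma adjusted p = 3.0e-07). F13a1, a transglutaminase related to Tgm2, had 9923 ± 325 and 2618 ± 747 without TNF (log2 -1.96, limma adjusted p = 4.7e-11), the direction opposite to that of Tgm2, and was not called with TNF (log2 0.10, limma adjusted p = 0.37). Cd5l, a secreted macrophage protein, was higher in both comparisons (log2 2.65 and 3.71).

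Among 13 relatives of the mannose receptor and the galactose lectins, 5 of 9 tested were lower and 3 higher without TNF (median -0.37), and 4 of 7 lower and 3 higher with TNF (median -0.25). Mrc2, a relative of Mrc1, had 123 ± 3.25 and 919 ± 81.6 without TNF (log2 2.89, limma adjusted p = 6.1e-15), the opposite direction to Mrc1. With TNF it had 15.3 ± 11.2 and 61.6 ± 8.03 (log2 2.22, limma adjusted p = 0.00043), the same direction as Mrc1. Mrc2 is also expressed by fibroblasts, and the summed stromal markers given above were higher in the same libraries. Clec4n, the lectin dectin-2, had the pattern of Clec10a, with 613 ± 39.4 and 210 ± 50.6 without TNF (log2 -1.57, limma adjusted p = 4.1e-09) and 68.9 ± 15.5 and 148 ± 25.1 with TNF (log2 1.10, limma adjusted p = 0.00011), and a difference of 2.67 between the 2 (limma adjusted p = 1.6e-08).

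Partners of Folr2, Tgm2 and Cd200r1 formed a list of 12, of which 11 were tested without TNF, with 2 higher and 5 lower in Klf6-deleted cells (median -0.09), and 10 with TNF, with 1 higher and 4 lower (median -0.03). Cd200, the ligand of Cd200r1, was higher in Klf6-deleted cells in both comparisons (78.1 ± 17.2 and 146 ± 16.7 without TNF, log2 0.91, limma adjusted p = 0.00020, and 123 ± 12.5 and 208.5 ± 17.3 with TNF, log2 0.76, limma adjusted p = 0.00012). Rasa1, a Ras inhibitor that acts below Cd200r1, was lower in both (log2 -0.70 and -0.86).

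Genes of classical activation, the state that TNF and interferon gamma favour, were read beside the set. Without TNF 8 of 14 tested were higher and 3 lower in Klf6-deleted cells (median 0.77), and with TNF 14 of 16 were lower and 2 higher (median -1.97), or 13 lower when scaled to total reads. Cxcl10, a chemokine induced by interferon, had 24878 ± 3907 and 547 ± 47.2 with TNF (log2 -5.50, limma adjusted p = 7.0e-17) and was not called without it (log2 -0.15, limma adjusted p = 0.49). Nos2, the inducible nitric oxide synthase, had 1980 ± 483 and 297 ± 16.1 (log2 -2.70, limma adjusted p = 2.2e-11). The genotype difference was lower with TNF than without for 12 of 14 classical genes and higher for 1. Over all genes tested in both comparisons it was called lower for 25.7% and higher for 26.5%. In the list of 30 genes linked to alternative activation it was lower for 10 of 20 tested and higher for 8 (median -0.47). Among the 7 members it was higher for Mrc1, Clec10a and Cd200r1 and lower for Tgm2 and Folr2.

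**Figure D5:**
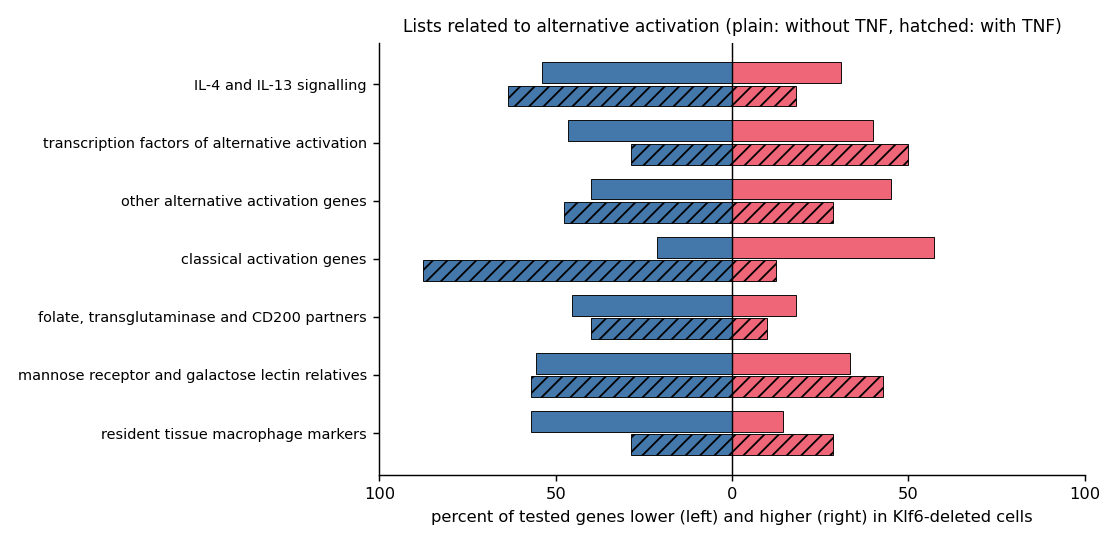
Percent of the tested genes of each related list that were called lower (bars to the left of 0) or higher (bars to the right) in Klf6-deleted than in Lyz2cre cells, plain bars without TNF and hatched bars with TNF. The bars of the classical activation list change sides most, from 8 of 14 higher without TNF to 14 of 16 lower with TNF.

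Genes whose pattern over the 12 libraries was most like that of a member were found by distance. It was taken between profiles of log2(CPM + 1), each centred on its own mean. Predicted genes and symbols that begin with C and a digit, such as C1qa, were not searched. Mrc1 was nearest to Igfbp4 at a distance of 0.715, with Fcgr3 at 1.01 and Nfatc2 at 1.06. The nearest to Clec10a were Cd28 (0.573), Arhgap18 (0.704) and Arhgap19 (0.799), and to Cd200r1 Retreg1 (0.322), Rtl5 (0.378) and Myo5a (0.398). Il4ra was nearest to Fam84b (0.445), Pik3r1 (0.446) and Ifitm6 (0.484), and Folr2 to Slc29a3 (0.347), Myo1e (0.352) and Hk3 (0.360). The nearest to Tgm2 were Npy (0.829), Slc6a9 (1.03) and Bnip3 (1.07), and to Chil3 S100a8 (0.898), Cd93 (1.30) and Entpd1 (1.36). Between members the closest pairs were Il4ra and Folr2 (1.51), Il4ra and Cd200r1 (1.56) and Mrc1 and Clec10a (1.80), and the most distant was Clec10a and Tgm2 (11.6).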

How the data were processed

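Total RNA of the 12 libraries was made into sequencing libraries from 150 ng with a stranded total RNA kit that removes ribosomal RNA, per the labels' protocols. The deposited files are 2 tables, 1 per treatment, in which the authors gave a normalized signal for each gene in each library under Ensembl identifiers, per the file headers. The unit was read from the values: in each library every value was a whole multiple of 1 step (100% within a tolerance of 0.001 reads), which makes it a count of reads over a size factor of that library, and whole reads were recovered. Tables were normalized separately. Per the submitters' processing notes, Cufflinks and the builds GRCm39 and mm10 were involved, without a version or role. Which aligner, counter, annotation, strand setting and filters were used is not given in the sources used here. No unit had been given beforehand, and the limma analysis laid out for normalized values was used.

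Genotypes were compared within a table with limma's trend option on log2(value + 1). Genes needed 1 CPM or more in 3 or more libraries, with Benjamini-Hochberg adjustment and calls at an adjusted p below 0.05. The difference of the genotype differences was a limma contrast over the 4 groups, for genes tested in both tables. RPKM used the union of exons in GENCODE vM21 (GRCm38), which also gave the positions. A table paired 22867 of 22896 untreated and 21411 of 21437 TNF identifiers with a symbol, and all value columns were used. The members and lists were chosen with earlier results of these data known. Named genes were Klf6, the members, up to 4 genes of each list with the largest called change in each comparison, and the 3 nearest genes to each member. The search for nearest genes left out predicted genes. It also left out every symbol that begins with C and a digit, such as C1qa. Of these a selection is printed, picked after values were seen. The results of a pair of named genes are not reported here. The test was tested on simulated data. Alternatives were edgeR quasi-likelihood with TMM and DESeq2 on the recovered reads, a pseudocount of 5, no filter or a filter of 5 CPM, scaling to total reads, each library left out and the replicate number as a block. Libraries held 16.9 to 23.4 M reads without molecular identifiers, so the precision of low values such as those of Mgl2, Retnla and, with TNF, Clec10a is limited by few reads. Models ran in R 4.3.3 (DESeq2 1.42.0, edgeR 4.0.16 and limma 3.58.1), and figures and tables in Python 3.11.15 (matplotlib 3.10.9, pandas 2.3.3 and numpy 2.4.6).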

Additional observations from a re-analysis of the deposited data

Results flagged for a closer look

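For 5 members the difference between genotypes was itself different with and without TNF, by the limma test of the contrast over the 4 groups (Benjamini-Hochberg adjusted p below 0.05, n = 3 libraries per group). The log2 genotype difference with TNF minus that without TNF was 2.14 for Mrc1. For Clec10a it was 3.00, and for Cd200r1 0.95. It was -0.99 for Tgm2, whose difference kept its direction and was smaller with TNF. It was -0.71 for Folr2, whose difference changed direction. This test called 52.2% of all genes it covered.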

How the results depend on the processing

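The number of genes called in each comparison, both directions together, and the members called in each direction stayed within 1.5 times their main values under all alternatives run. Of the counts for related and marker lists, 72 moved by more and 1458 did not. Of the refitted member differences 317 kept direction and call, 3 gained a call, 3 lost one and 2 turned sign. Chil3 with TNF, which was not called, turned sign when scaled to total reads (0.25) and ranged from -0.18 to 0.05 when 1 library was left out, the highest without Lyz2cre TNF replicate 3. The other changes, for Chil3 and Il4ra, stand beside their results. Scaling to total reads moved the median of all genes by 0.13 without TNF, 0.33 with TNF and 0.19 for the difference, and the share of calls that were higher from 48.5 to 68.0%, from 46.2 to 80.4% and from 50.8 to 71.6%. Genes called higher and lower then numbered 5122 and 2408 (3508 and 3722 in the main analysis) without TNF, 7038 and 1716 (3103 and 3608) with TNF, and 4781 and 1892 (3033 and 2932) for the difference. No called member changed direction by it, but log2 differences came to -0.20 and -0.23 for Il4ra without and with TNF, 0.38 and -0.13 for Folr2, 0.73 for Mrc1 and 0.64 for Cd200r1 with TNF, and 0.26 for Chil3 without TNF. With 1 library left out, 6106 to 6823 genes were called without TNF, 5713 to 6564 with TNF and 5490 to 5967 for the difference, beside 7230, 6711 and 5965. Under the 5 CPM filter Clec10a was not tested with TNF. Same-numbered libraries of the genotypes deviated together weakly at most, and not in every pair (correlations 0.152, -0.0378 and 0.158 untreated and -0.0209, -0.0123 and -0.0295 with TNF). Untreated libraries of unlike number had correlations from -0.23 to 0.114, below those of numbers 1 and 3. Not every library correlated best with its own number. With the replicate block 7284, 6473 and 5834 genes were called, and members' calls were 3 higher and 4 lower without TNF, 4 higher and 2 lower with TNF and 5 for the difference, as without it.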
